A study of Saccharomyces cerevisiae with 30 samples.

Results

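The sulfur and methionine genes described here are 10 named genes of Saccharomyces cerevisiae, of 5547 genes on the array. They were chosen by name for their part in sulfate assimilation, methionine synthesis and methionine uptake, with earlier results of these data known. All 10 were tested in every group of arrays. Yeast builds methionine from inorganic sulfate, which is activated and reduced in steps to sulfide. Sulfide is joined to a carbon skeleton to give homocysteine, homocysteine is methylated to methionine, and methionine is turned into S-adenosylmethionine, the methyl donor of the cell. The genes of this route are known as targets of the activator Met4, and cells that have methionine in the medium take it up through permeases and keep much of the route repressed.

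RNA of a test strain and of its reference strain was hybridised together on 23 of 30 two-channel arrays, and the other 7 held 1 reference strain in both channels (self arrays). The series title names TFIID and SAGA, coactivators that deliver the TATA-binding protein to promoters, and asks how genes depend on them. Cultures in CSM-Trp-His medium reached an OD600 of about 0.8 at 26 °C and, in all groups but 1, were then held at 37 °C for 45 min after heated medium was added. The groups YKH100, YKH101, YJS7, YJS8 and YJS9 at 37 °C, and YJS8 kept at 26 °C, were compared with the strain YJS6. The groups YKH104, YKH106, YKH107, YKH108 and YKH109, all at 37 °C, were compared with YKH105. YKH109 had 3 arrays and every other test group 2, and there were 4 self arrays of YJS6 and 3 of YKH105. The genotypes of the strains, and any allele that test and reference strains share, are not given in the sources used here, so strains are called by their labels. GCN5, the histone acetyltransferase of SAGA, was at -4.97 in YKH100, -5.40 in YKH101, 2.48 in YJS7 and 3.21 in YJS9. SPT3, another SAGA subunit, was at -8.33 in YKH104, -8.23 in YKH107 and 1.43 in YKH108, and these values describe the strains without naming their alleles.

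A value below is a log2 ratio of test over reference minus the median of its array, so 0 is the median gene of that array. The labels do not state the direction of the ratio. Test over reference is likely, read from the size of the GCN5 and SPT3 values, and every "higher" or "lower" below rests on that reading. On the deposited scale the mean array median of a test group ran from -0.97 in YJS8 at 37 °C to 0.19 in YJS7, and self arrays ran from -0.54 to 0.67. The shift was -0.96 in YKH107 and in YKH109, -0.69 in YKH101 and in YKH108, and -0.51 in YJS9, so deposited values are given wherever they turn a call around. Ratios do not give the abundance of a transcript, and no level is compared between genes. The deposited columns labelled YKH100 replicate 2 and YJS8 at 37 °C replicate 2 were identical, and both were left out, so these groups rest on 1 array each. A gene was called higher or lower at a Benjamini-Hochberg adjusted p under 0.05 over all genes of the group, from a limma fit in which ± gives the standard error. Whether replicate arrays came from separate cultures is not stated, so p-values cover only their spread, which may be technical.

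Across the 10 groups at 37 °C, 42 of the 100 member values were called higher, none was called lower and 79 were above 0. As deposited, 12 were called higher and 5 lower. Members were called higher in YJS9 (8 of 10), YKH101 (7), YKH107 (7), YKH108 (6), YKH109 (6), YJS8 (5), YKH104 (2) and YKH100 (1). The share of all tested genes called higher was 20.9% in YJS9, 18.9% in YKH101, 23.5% in YKH107, 17% in YKH108, 25.1% in YKH109, 8.14% in YJS8, 6.47% in YKH104 and 0.637% in YKH100. The calls fell mainly on the permease genes and on the genes from homocysteine to methionine, while MET3 and MET16 had no call in any group and passed with no adjustment in 3 of their values. These 2 genes had the largest standard errors of the 10, at 0.36 and 0.40 for 2 arrays. All groups share the spread of a gene, so these errors include the spread of MET3 in YKH109 and of MET16 in YKH106. The share called lower, where no member was, came to 0.691% in YKH100, 20.4% in YKH101, 7.74% in YJS8, 23.1% in YJS9, 7.09% in YKH104, 24.9% in YKH107, 19.9% in YKH108 and 27.8% in YKH109. The calls on the deposited scale were in YKH101 (3 higher where 2.13% of genes were, 1 lower where 31.1% were), YJS9 (3 where 3.49% were, 1 where 22.6% were) and YKH109 (3 where 2.04% were, 3 where 60.6% were). YKH107 had 1 higher there (0.563% of genes) and YKH108 2 (1% of genes).

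In YJS7 no member was called, against 7.38% of all genes called higher and 6.93% lower. With no adjustment 1 member passed p under 0.05 upward and 1 downward there, and limma's smallest adjusted p was 0.0771. YKH106 also had no call, against 0.636% of genes called higher and 0.455% lower. There 5 members passed upward with no adjustment, and 1, MET16, was called once replicate 1 was left out. YJS8 kept at 26 °C had none either, against 0.0182% of genes called higher, and no member passed there even with no adjustment. The counts of YKH101 and YKH104 each depended on single arrays. YKH101 had 4 calls in place of 7 without replicate 2, and YKH104 had 0 without either replicate. Single calls that were lost without 1 array of their strain were MET10 and SAM1 in YKH101, MET14 in YJS9, MET14 in YKH107 and MET6 in YKH108. The calls of MET17 in YKH101, MET10 in YJS9 and MET10 in YKH108 were lost without either array.

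**Figure D1:**
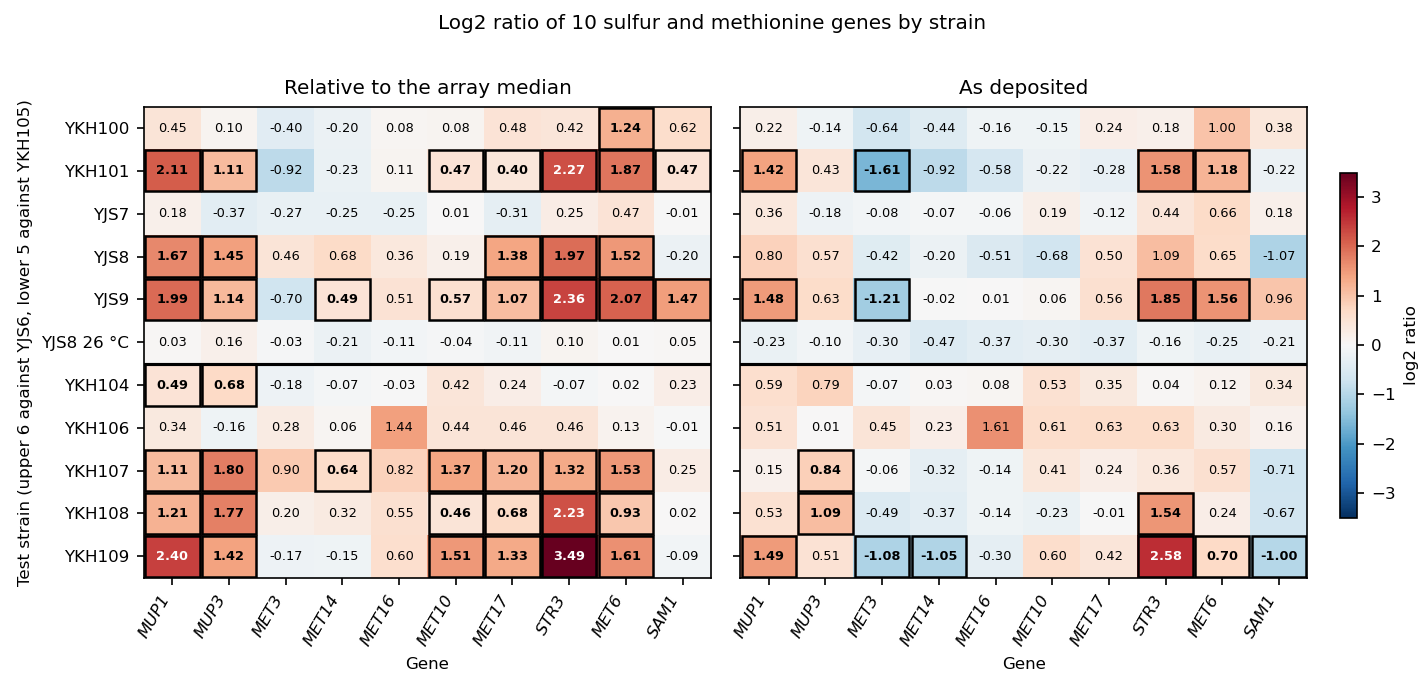
Fitted log2 ratio of the 10 genes (columns, in order of their role) in the 11 test groups (rows), relative to the array median on the left and as deposited on the right. Framed cells passed the adjusted p threshold of 0.05: 42 higher and none lower at 37 °C on the left, 12 higher and 5 lower on the right, where several framed cells of the left panel are below 0.

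The methionine permeases were among the members most often called. MUP1 encodes the high-affinity methionine permease and was called higher in 7 of 10 groups at 37 °C. In YKH109 its 3 arrays read 2.22, 2.41 and 2.68, which gave 2.40 ± 0.09, or 5.27-fold (adjusted p = 1.5e-08). In YKH101 the arrays read 1.87 and 2.35, with 2.11 ± 0.11 (adjusted p = 2.34e-07). In YJS9 they read 1.77 and 2.21, with 1.99 ± 0.11 (adjusted p = 1.79e-07). All of these lie far above the self arrays, where MUP1 ran from 0.01 to 0.39 against YJS6 and from -0.29 to -0.03 against YKH105. Of all genes, 24.3% lay wholly above the self arrays in YKH109, 22% in YKH101 and 24.1% in YJS9. The shares for the other groups are given with the counts of members below. The single array of YJS8 read 1.55, fitted as 1.67 ± 0.16. The arrays of YKH108 read 1.17 and 1.26, and those of YKH107 read 1.06 and 1.16, so both strains stand well below YKH109 and close to each other. YKH104 read 0.41 and 0.57, a small call of 0.49 ± 0.11 that was lost without either array. The remaining values were 0.34 on the array of YKH100, 0.31 and 0.37 in YKH106, and 0.10 and 0.25 in YJS7, none of them called. MUP1 was above 0 in all 10 groups on both scales, and on the deposited scale it stayed called in YKH101 at 1.42, YJS9 at 1.48 and YKH109 at 1.49.

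MUP3 encodes a low-affinity methionine permease and was also called in 7 groups, with another order of strains by fitted value. Its highest values were in YKH107, with arrays at 1.90 and 1.71 and a fit of 1.80 ± 0.17, and in YKH108, with arrays at 1.46 and 2.09 and a fit of 1.77 ± 0.17. YKH109 read 1.33, 1.44 and 1.49, fitted as 1.42 ± 0.14, and did not differ from either by the threshold. The difference between YKH107 and YKH108 in MUP3 was 0.03, with a 95% interval from -0.51 to 0.56. YJS8 read 1.45 on its array, YJS9 1.29 and 1.0, and YKH101 0.96 and 1.26. YKH104 read 0.75 and 0.62, the larger of the 2 calls in that strain. The self arrays of YJS6 reached 0.88 for MUP3, more than for most members, and the YKH101 and YJS9 arrays lay above that value by a small margin. YJS7 read -0.03 and -0.71, both below the lowest YJS6 self array at 0.18, where 12.9% of all genes lay in that strain, with no call. As deposited, MUP3 stayed called in YKH107 at 0.84 and YKH108 at 1.09.

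The genes of sulfate activation and reduction gave few calls. MET3 encodes ATP sulfurylase, the first enzyme of the route, and was not called in any group. Its 2 arrays read -1.06 and -0.78 in YKH101 and -0.68 and -0.72 in YJS9. All lay below the YJS6 self arrays, whose lowest was -0.31, as did 26.6% of all genes in YKH101 and 28.7% in YJS9. The MET3 fits were -0.92 ± 0.36 (adjusted p = 0.0631) and -0.70 ± 0.36 (adjusted p = 0.142). MET3 was called lower on the deposited scale, at -1.61 in YKH101, -1.21 in YJS9 and -1.08 in YKH109. In YKH107 the arrays read 1.03 and 0.78, above all self arrays of YKH105, as did 34.6% of all genes. The MET3 fit there was 0.90 ± 0.36 and the deposited value -0.06. The 3 arrays of YKH109 spread from -1.40 over -0.06 to 0.94, wider than for any other member in that strain, and without replicate 2 the fit moved from -0.17 to 0.44. All groups share 1 spread per gene, so the standard error of MET3 in every group includes the spread of these 3 arrays.

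MET14 encodes APS kinase, the step after MET3. It was called higher in YJS9, with arrays at 0.40 and 0.58 and a fit of 0.49 ± 0.15, and in YKH107, with arrays at 0.86 and 0.41 and a fit of 0.64 ± 0.15. Both calls turned on the deposited scale, to -0.02 and -0.32, and YKH109 was called lower there at -1.05. The single array of YJS8 read 0.76, and its fit of 0.68 ± 0.21 missed the threshold (adjusted p = 0.0502). MET16 encodes PAPS reductase and had no call. Its largest fit, 1.44 ± 0.40 in YKH106, rested on arrays at 0.06 and 2.81, so the replicates of that strain do not agree in size. In YKH107 the MET16 arrays read 0.83 and 0.81, in YKH109 they read 0.63, 0.57 and 0.71, and in YKH108 they read 0.53 and 0.57. The highest YKH105 self array read 0.46, so these 3 strains do not overlap with the self arrays. The fit, with an error of 0.33 to 0.40, called none of them. All groups share the spread of a gene, so this error includes the spread of the YKH106 arrays at 0.06 and 2.81. Fitted by limma apart from the strains against YKH105, MET16 in YJS9 was called higher at 0.51 (adjusted p = 0.00628). With YKH106 still in their separate fit, YKH107, YKH108 and YKH109 had no MET16 call.

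MET10 encodes a subunit of sulfite reductase, which makes sulfide. It was called higher in 5 groups, with the largest values in YKH109 and YKH107. YKH109 read 1.81, 1.43 and 1.26, fitted as 1.51 ± 0.13 (adjusted p = 2.79e-06). YKH107 read 1.28 and 1.45, fitted as 1.37 ± 0.16. YKH108 stood below both at 0.37 and 0.54. The differences of MET10 in YKH108 were -1.05 from YKH109 (95% interval -1.51 to -0.59, adjusted p = 0.011) and -0.91 from YKH107 (adjusted p = 0.0166). Both calls were lost without either array of YKH108, the second also without either array of YKH107. Against YJS6 the calls were 0.57 ± 0.16 in YJS9 and 0.47 ± 0.16 in YKH101. The calls in YKH101 and YKH108 turned to -0.22 and -0.23 on the deposited scale. MET5, the gene of the other subunit of sulfite reductase and no member, was called higher in YKH109 at 0.55 and lower in YJS9 at -0.38. It was named after its values were seen. In YJS9 the calls of the 2 subunit genes thus ran in opposite directions. The MET10 call there was lost without either array of YJS9, and MET10 was at 0.06 as deposited with no call. In YKH109 both subunit genes were called higher, and on the deposited scale MET5 was at -0.45 there.

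Homocysteine is made by the product of MET17, which joins sulfide to O-acetylhomoserine, and by the product of STR3, which cleaves cystathionine. MET17 was called higher in 6 groups. The single YJS8 array read 1.52, fitted as 1.38 ± 0.16. YKH109 read 1.48, 1.22 and 1.13, fitted as 1.33 ± 0.09 (adjusted p = 3.14e-07), YKH107 read 1.27 and 1.14, and YJS9 read 1.08 and 1.06. The self arrays ended at 0.42 against YJS6 and at 0.24 against YKH105, below all arrays of these 4 strains. YKH108 followed with 0.79 and 0.57. YKH101, with 0.50 and 0.31, was called at 0.40 ± 0.11 but overlapped with the self arrays. MET17 had no call on the deposited scale, and the values of YKH101 and YKH108 turned to -0.28 and -0.01. YJS7 read -0.09 and -0.53, below all YJS6 self arrays, where 12.9% of all genes lay in that strain, with no call. MET17 is also in use as a selectable marker in laboratory strains, and no marker of these strains is given in the sources used here.

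STR3 had the largest value of any member in any group. In YKH109 its arrays read 3.34, 3.68 and 3.59, fitted as 3.49 ± 0.17, or 11.2-fold (adjusted p = 4.02e-08). The YKH105 self arrays ran from -0.07 to 0.12, so the 3 arrays lie together and far from them. YJS9 read 2.25 and 2.48, with 2.36 ± 0.21. YKH101 read 1.60 and 2.94, a wider spread around a fit of 2.27 ± 0.21. YKH108 read 2.06 and 2.39, the array of YJS8 read 1.82, and YKH107 read 1.26 and 1.38. The YJS6 self arrays themselves ran from -0.31 to 1.03 for STR3, the widest self range of the 10 genes, and the called strains lay above it. In the other 4 groups the fit lay between -0.07 in YKH104 and 0.46 in YKH106. STR3 was the member with the most calls on the deposited scale: YKH109 at 2.58, YJS9 at 1.85, YKH101 at 1.58 and YKH108 at 1.54.

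MET6 encodes methionine synthase, which methylates homocysteine, and was called higher in 7 groups. YJS9 read 2.17 and 1.98, fitted as 2.07 ± 0.17, or 4.2-fold (adjusted p = 2.9e-06). YKH101 read 2.31 and 1.43, YKH109 read 1.66, 1.75 and 1.36, YKH107 read 1.47 and 1.59, and the array of YJS8 read 1.59. YKH108 was lower at 0.85 and 1.01. All of these arrays were above the highest self array, at 0.49 for YJS6. MET6 was the 1 member called in YKH100, from a single array at 1.30 with a fit of 1.24 ± 0.25 (adjusted p = 0.0317), and that call depended on how the repeated column was treated. YKH104 read 0.00 and 0.04, the smallest MET6 value of the shifted strains. MET6 was above 0 in all 10 groups on both scales and stayed called on the deposited scale in YJS9 at 1.56, YKH101 at 1.18 and YKH109 at 0.70.

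SAM1 encodes 1 of the 2 S-adenosylmethionine synthetases, which use methionine. It was called higher in YJS9, where the arrays read 1.48 and 1.46, a fit of 1.47 ± 0.10 or 2.77-fold (adjusted p = 9.9e-07). YKH101 read 0.35 and 0.59, called at 0.47 ± 0.10, and turned to -0.22 on the deposited scale. YKH100 read 0.62 on its array with no call (adjusted p = 0.0717). In the other groups at 37 °C the fit lay between -0.20 in YJS8 and 0.25 in YKH107, and in YKH109 the 3 arrays read -0.08, -0.05 and -0.13. SAM1 was called lower on the deposited scale in YKH109, at -1.0. SAM2, the gene of the other synthetase and no member, was called higher in 7 groups, at 1.72 in YJS9 and 1.35 in YKH107. SAM1 and SAM2 are close in sequence, the probe sequences were not used here, and how far their spots share signal was not tested.

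**Figure D2:**
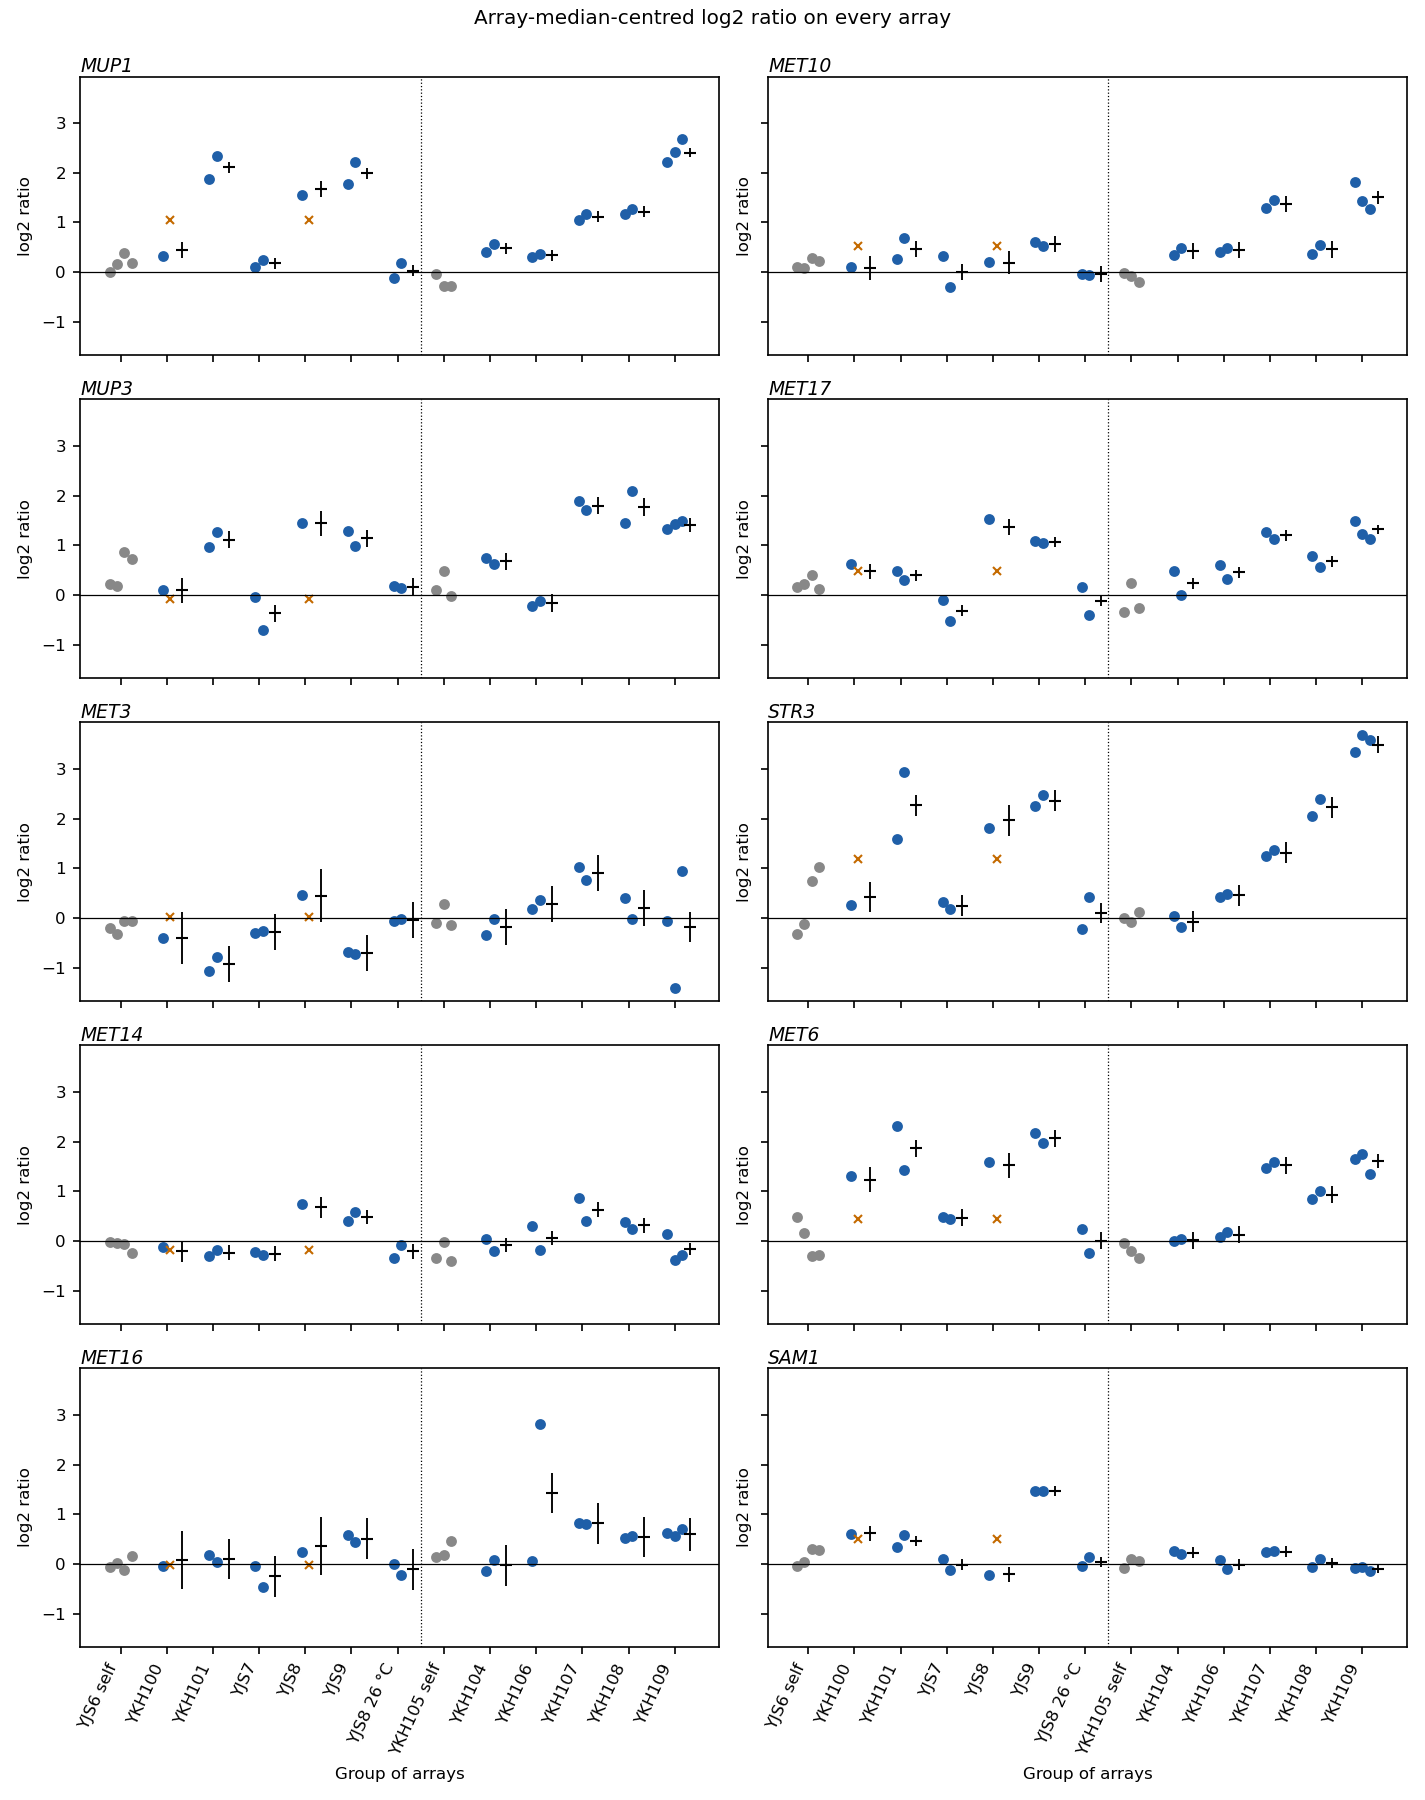
Array-median-centred log2 ratio of each gene (panels) on every array (points) by group (x axis), with the self arrays in grey and the fitted value ± SE as a black bar. Orange crosses are the repeated column, drawn under both labels and left out of the fit. The STR3 arrays of YKH109 lie between 3.34 and 3.68, while the MET3 arrays of that strain spread from -1.40 to 0.94 and the MET16 arrays of YKH106 from 0.06 to 2.81.

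A count of members whose arrays lay wholly above or below the self arrays gave a view that does not use the fit. All 10 members lay above the YKH105 self arrays in YKH107, where 34.6% of all genes did. In YJS9 9 members lay above the YJS6 self arrays (24.1% of genes) and in YKH108 8 lay above those of YKH105 (28.6%). The array of YJS8 at 37 °C had 8 above (31%), with 1 array in the group. YKH109 had 7 (24.3%), YKH101, YKH104 and YKH106 had 5 each (22%, 21.7% and 13%), YKH100 had 3 (25.6%) and YJS7 had 0 (12.1%). Below the self arrays at 37 °C lay MET3 in YKH100, YKH101 and YJS9, MUP3 in YKH100, YJS7 and YKH106, MET17 in YJS7, SAM1 in YJS8 and MET16 in YKH104. Of all genes, 24.4% lay below in YKH100, 26.6% in YKH101, 28.7% in YJS9, 12.9% in YJS7, 33.4% in YJS8, 25.1% in YKH104 and 11.5% in YKH106, and 37.2%, 32.5% and 27.6% in YKH107, YKH108 and YKH109, where no member did.

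Strains compared with a common reference were set against each other in the same fit, 10 pairs for each reference and 100 member tests in each. Of these, 27 differences were called among the strains against YJS6 and 41 among those against YKH105, where 6.27% and 15.2% of all genes tested were. As deposited, limma called 0 and 10, where 0.348% and 15.6% of all genes were, and 6 of the differences against YJS6 passed with no adjustment. The 10 were 3 in STR3, also called relative to the array median, and 3 in MET16, 2 in SAM1, 1 in MET3 and 1 in MET14. Those of MET16 include YKH106 minus YKH107 at 1.75 and minus YKH108 at 1.74, where the YKH106 arrays read 0.53 and 2.68. On that scale 13 of the differences called relative to the array median changed sign, all of them between YJS7, YKH104 or YKH106 and a strain with a lower array median. Relative to the array median, MUP1 differed in 6 and 8 of the 10 pairs, STR3 in 5 and 7, MET17 in 6 and 6, MUP3 in 3 and 6, and MET6 in 2 and 6. MET10 differed in 0 and 6 pairs, SAM1 in 4 and 0, MET14 in 1 and 2, and MET3 and MET16 in none.

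Among the strains against YKH105, YKH109 stood apart from YKH107 and YKH108 in MUP1 and STR3. The MUP1 difference from YKH109 was -1.29 ± 0.14 in YKH107 (95% interval -1.60 to -0.98, adjusted p = 0.000125) and -1.18 ± 0.14 in YKH108 (adjusted p = 0.000588). The STR3 difference from YKH109 was -2.17 ± 0.27 in YKH107 (95% interval -2.76 to -1.58, adjusted p = 0.000294) and -1.26 ± 0.27 in YKH108 (adjusted p = 0.0169). These differences kept their sign on the deposited scale, at -1.34 and -0.97 for MUP1 and at -2.22 and -1.04 for STR3, and of these the STR3 difference from YKH107 stayed called. Both MUP1 differences and the STR3 difference from YKH107 kept their calls without any single array of either strain, while the STR3 difference of YKH108 lost its call in 3 of 5 such fits (without either array of YKH108 or replicate 1 of YKH109). MET17 was also lower in YKH108 than in YKH109, with a difference of -0.65 ± 0.14 (adjusted p = 0.0182), which lost its call in the same 3 fits. In the other direction, MET14 was higher in YKH107 than in YKH109 by 0.79 ± 0.19 (adjusted p = 0.0198), a call lost without either array of YKH107. Between YKH107 and YKH108, MET10 and MET17 were called, the latter at 0.52 ± 0.15 (adjusted p = 0.0344), but both calls were lost in all 4 fits that left out 1 array of the pair. Their STR3 difference of -0.91 ± 0.30 missed the threshold (adjusted p = 0.0534). Of all genes, 10.9% differed between YKH107 and YKH109, 5.1% between YKH108 and YKH109 and 17.8% between YKH107 and YKH108. YKH104 and YKH106 differed in no member by limma, with 2 passing when unadjusted, where 0.164% of genes differed.

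Among the strains against YJS6, YJS9 and YKH101 had the closest values for the permeases and for STR3 and MET6. Their differences, YJS9 minus YKH101, were -0.12 in MUP1 (95% interval -0.46 to 0.22), 0.03 in MUP3 (-0.51 to 0.56), 0.09 in STR3 (-0.55 to 0.74) and 0.20 in MET6 (-0.32 to 0.73). None of these was called, and the intervals leave room for differences of up to 0.74 for STR3 and 0.73 for MET6. The differences called in this pair were SAM1, higher in YJS9 by 1.0 ± 0.15 (95% interval 0.68 to 1.32, adjusted p = 0.0106), and MET17, higher by 0.67 ± 0.15 (adjusted p = 0.0447), where 2.5% of all genes differed. Of the 4 fits that left out 1 array of the pair, SAM1 lost its call in 2 (without replicate 1 of either strain) and MET17 in all 4. The SAM1 difference of YJS8 from YJS9 was -1.67 ± 0.18 (adjusted p = 0.000396). YJS7 lay below YJS9, YKH101 and YJS8 in MUP1, MUP3, STR3 and MET17. For MUP1 these differences were -1.81 ± 0.15, -1.93 ± 0.15 and -1.49 ± 0.19. Of all genes, YJS7 differed from YJS9 in 18%, from YKH101 in 10.8% and from YJS8 in 5.81%, and YJS8 from YJS9 in 6.14%. The MET17 difference of YJS7 from YKH101 was -0.71, turned to 0.16 on the deposited scale and lost its call in 3 of 4 fits without 1 array of the pair. The STR3 difference of YJS7 from YJS8 lost its call without replicate 2 of YJS7.

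Both temperatures were measured in YJS8. At 26 °C its 2 arrays read -0.12 and 0.18 for MUP1, 0.18 and 0.15 for MUP3, -0.21 and 0.42 for STR3, 0.25 and -0.23 for MET6, and 0.17 and -0.39 for MET17. All 10 fits at 26 °C lay between -0.21 and 0.16. The 2 arrays correlated at -0.44 over all genes, so the direction of their ratios is not settled by the data. Several fits near 0, including those of STR3, MET6 and MET17, average arrays of opposite sign, and no fit with 1 array turned was run. On either array at 26 °C no member lay further from 0 than STR3 at 0.42. The differences below use the direction as deposited. The ratio to YJS6 at 37 °C minus that at 26 °C was called for 5 members: STR3 at 1.86 ± 0.37, MUP1 at 1.64 ± 0.19, MET6 at 1.51 ± 0.30, MET17 at 1.48 ± 0.19 and MUP3 at 1.28 ± 0.31. This is a difference of 2 ratios to the reference and need not be a change in YJS8 itself. Of all genes, 7.55% differed. The 37 °C side is a single array, and with the repeated column counted as YJS8 only, 1 member was called, and 2 were with it under both strains, and 3 were called without either array at 26 °C, where MUP3 lost its call both times. On the deposited scale limma called 0 of these differences, and 0 passed with no adjustment, while the 5 kept their signs.

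**Figure D3:**
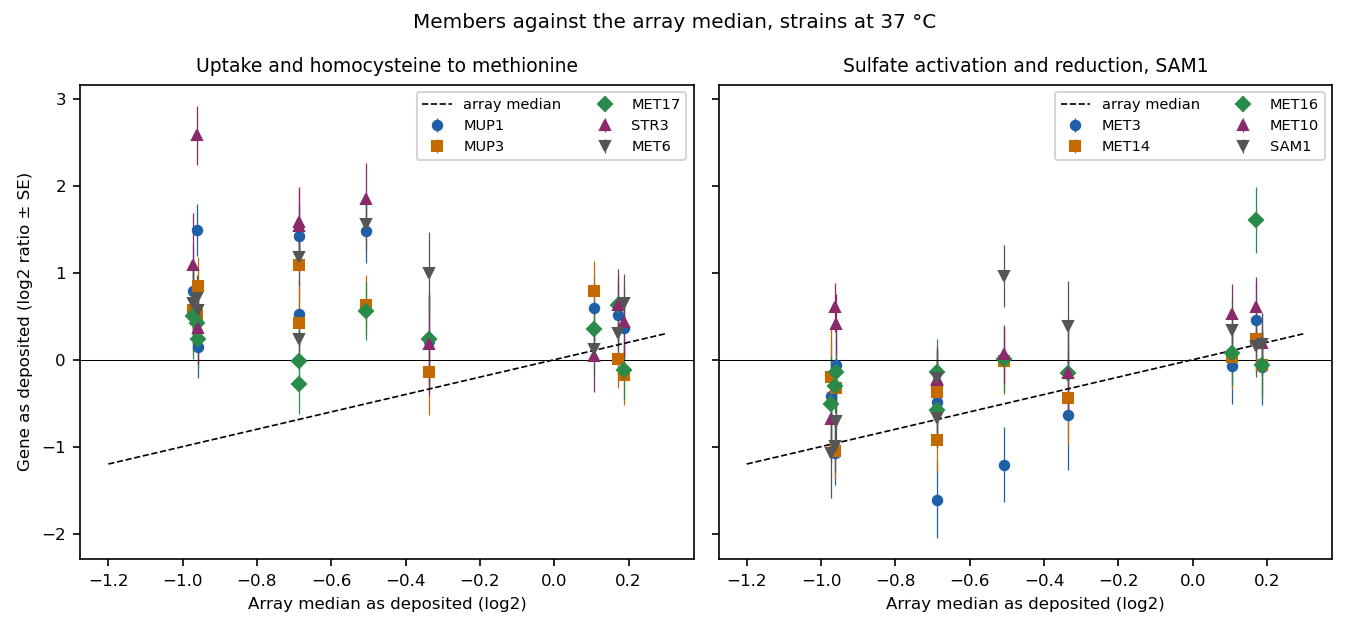
Deposited log2 ratio ± SE of each member (y axis) against the mean deposited array median of its group (x axis) for the 10 groups at 37 °C, split by role. A gene on the dashed line changed as the median gene did: MUP1, STR3 and MET6 lie above 0 in all 10 groups, while SAM1, MET14 and MET3 come close to the line in several groups, and MET3 lies below it in YKH101 at -1.61 and YJS9 at -1.21.

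The profiles of the members over the 10 shifted groups were not uniform. MUP1 and STR3 had the highest Pearson correlation of any pair of members, 0.95, followed by MUP1 and MET6 at 0.83. MET3 and SAM1 had the lowest, -0.57, and the highest value of SAM1 with any member was 0.47, with MET6. These are descriptions over 10 groups that share 2 reference strains and an array-wise centring. The mean of the 10 members was highest in YKH109 at 1.19, then YJS9 at 1.10, YKH107 at 1.09, YJS8 at 0.95, YKH108 at 0.84 and YKH101 at 0.77. It was 0.34 in YKH106, 0.29 in YKH100, 0.17 in YKH104 and -0.06 in YJS7. With that mean the single members correlated from 0.91 for MET17 and 0.87 for STR3 down to 0.19 for MET3 and 0.17 for SAM1. Of 5197 genes with a value in all 10 groups, the non-members most like the mean were PXA2 (a peroxisomal fatty acid transporter subunit, 0.96), CDA2 (a chitin deacetylase, 0.93), SSY1 (an amino acid sensor of the plasma membrane, 0.93), UTH1 (0.93) and SKI7 (a factor of the cytoplasmic exosome, 0.92). PXA2 ran from 0.04 in YKH100 to 0.96 in YKH107, a smaller range than that of most members.

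Calls on the 47 other sulfur genes on the array ran in both directions. In YJS9 22 of them were called higher and 12 lower, with a median of 0.29, beside a median of 1.11 for the 10 members and -0.01 for all genes tested. Members and lists were chosen with earlier results of these data known, and how far the gap between these medians depends on that choice was not tested. In YKH109 17 were called higher and 13 lower, in YKH107 14 and 11, in YKH101 10 and 11, and in YKH108 9 and 15. The shares of all genes called higher and lower were 20.9% and 23.1% in YJS9, 25.1% and 27.8% in YKH109, and 23.5% and 24.9% in YKH107. They were 18.9% and 20.4% in YKH101 and 17% and 19.9% in YKH108. Both counts of YKH101 lie near these shares, as do the lower counts of YJS9, YKH107 and YKH109 and the higher count of YKH108. YJS8 had 6 higher and 3 lower, YJS7 5 and 4, YKH104 3 and 7, and YKH100 2 and 0, while limma called none in YKH106, where 4 were higher and 5 lower with no adjustment. Here the shares of all genes were 8.14% and 7.74% in YJS8, 7.38% and 6.93% in YJS7, and 6.47% and 7.09% in YKH104. They were 0.637% and 0.691% in YKH100 and 0.636% and 0.455% in YKH106. The lower counts of YJS8 and YJS7 and the higher count of YKH104 also lie near the share of all genes. The medians of these genes lay between -0.10 and 0.06 in the 9 groups other than YJS9. The sum of both directions fell from 24 to 12 without replicate 1 and to 10 without replicate 2 in YKH108, from 21 to 13 without replicate 2 in YKH101, and from 34 to 19 without replicate 1 in YJS9. In YKH104 it fell from 10 to 1 without either replicate, and in YJS7 from 9 to 5 without replicate 1 and to 3 without replicate 2. As deposited, few of the 47 were called higher: 5 higher and 9 lower in YJS9, where 3.49% and 22.6% of all genes were. YKH109 had 0 and 25 (2.04% and 60.6%) and YKH101 1 and 12 (2.13% and 31.1%). YKH107 had 1 and 25, with 31 and 2940 of all 5505 genes, and YKH108 0 and 16, with 55 and 1642 of 5502. The 55 genes for the synthesis of amino acids without sulfur had 9 higher and 25 lower in YKH107, with a median of -0.48 where the members' median was 1.16, and 18 higher and 8 lower in YJS9, with a median of 0.09. The 16 other amino acid permeases had 2 higher and 10 lower in YKH107 and 9 higher and 3 lower in YJS9, of 14 tested in YJS9. The counts of these 2 lists are relative to the array median, with the shares of all genes as given above. As deposited, the 55 genes had 1 higher and 38 lower in YKH107 and 2 and 9 in YJS9. The permeases had 0 and 12 in YKH107 and 2 and 1 in YJS9.

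Of the methyl cycle and salvage genes, SAM4 was called lower in 8 groups, at -2.10 in YKH109, -1.97 in YJS9 and -1.92 in YKH101. SAM4 and MHT1 both encode homocysteine methyltransferases, and MHT1 was called higher in 7 groups, at 1.59 in YKH107, 1.19 in YJS9 and 0.79 in YKH109. MHT1 turned to -0.18 in YKH101 and -0.20 in YKH109 on the deposited scale, and SAM4 kept its sign in every group where it was called. MRI1 and MDE1, of the methionine salvage pathway, were each called lower in 6 groups, to -1.44 and -1.21 in YKH109. The MDE1 call in YJS9 was lost without 1 array, and those in YKH101, YJS7 and YKH108 without either array of the strain. Also lost without either array were the MHT1 calls in YKH101, YJS7 and YKH104, the SAM2 calls in YKH104 and YKH108 and the SAM4 call in YKH104. SAM2 turned below 0 on the deposited scale in YJS8 at -0.05, YKH108 at -0.26 and YKH109 at -0.11. MET12, an isozyme of methylenetetrahydrofolate reductase, was called in YJS9 alone of the 10 groups, at 2.66 ± 0.75, and lay between -0.15 and 0.31 in the others. That value rested on 1 array: MET12 was at 0.012 without replicate 1 of YJS9, with no call, and at 5.31 without replicate 2.

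Of the sulfate and homocysteine genes outside the 10, MET1, for siroheme synthesis, was called higher in 6 groups, at 1.46 in YKH107 and 1.16 in YKH109, and turned to -0.10 in YJS8 and -0.24 in YKH108 on the deposited scale. MET22, a phosphatase that removes the by-product of PAPS reduction, was called lower in 5 groups, to -0.71 in YKH101. Each of these MET22 calls was lost without 1 array of its strain, and in YKH108 without either. HOM2, of the route from aspartate to homoserine, was called lower in 6 groups, to -1.77 in YKH107. The HOM2 calls in YKH104 and YKH108 were lost without either array of the strain, and that in YJS7 without 1. HOM3, the aspartate kinase of that route, was called higher in 4 groups, at 1.31 in YJS8, and lower in YJS7 at -0.67, a call lost without 1 of the 2 YJS7 arrays. The calls of HOM3 in YJS9, YKH108 and YKH109 turned to -0.02, -0.09 and -0.44 on the deposited scale. In YJS9 the extremes were SUL2, a sulfate permease, at 0.97, CYS3, cystathionine gamma-lyase, at 1.08 and HOM6, homoserine dehydrogenase, at -0.82. Of these calls, CYS3 was lost without either array of YJS9 and SUL2 without 1 of the 2, while HOM6 was kept.

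Among uptake genes and regulators, YCT1, a cysteine transporter, was called higher in 4 groups, at 2.0 in YJS9 and 1.82 in YKH101, and lower in YKH104 at -0.77. The YCT1 call in YKH104 was lost without either array of the strain, as was its higher call in YJS7. Its call in YKH108 was lost without 1 array and turned to -0.01 on the deposited scale. SOA1, a transporter of sulfonates and inorganic sulfur, was called lower in 7 groups, to -0.87 in YKH101. The SOA1 calls in YJS9 and YKH104 were lost without either array of the strain, and those in YKH107, YKH108 and YKH109 without 1 array. In YJS9 MMP1, the permease of S-methylmethionine, was highest in its list at 2.29, and OPT1, a transporter of glutathione, was lowest at -1.10. MET28, a cofactor of Met4, was called higher in 6 groups, at 1.77 in YKH107, and MET30, the ubiquitin ligase subunit that restrains Met4, in 7 groups, at 1.29 in YKH107 and 1.17 in YKH101. MET28 turned to -0.20 in YJS8 and MET30 to -0.43 in YKH109 on the deposited scale. MET32, a DNA-binding partner of Met4, was lowest of the regulators in YJS9 at -0.45, a call lost without 1 of the 2 arrays. It was called higher in YKH107 and YKH109, at 0.78 and 0.97, of which the first turned to -0.18. GSH1, the first enzyme of glutathione synthesis, was called higher in 6 groups, at 0.85 in YJS9 and in YKH101, and turned below 0 on the deposited scale in YJS8, YKH107, YKH108 and YKH109, at -0.19, -0.47, -0.16 and -0.57.

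**Figure D4:**
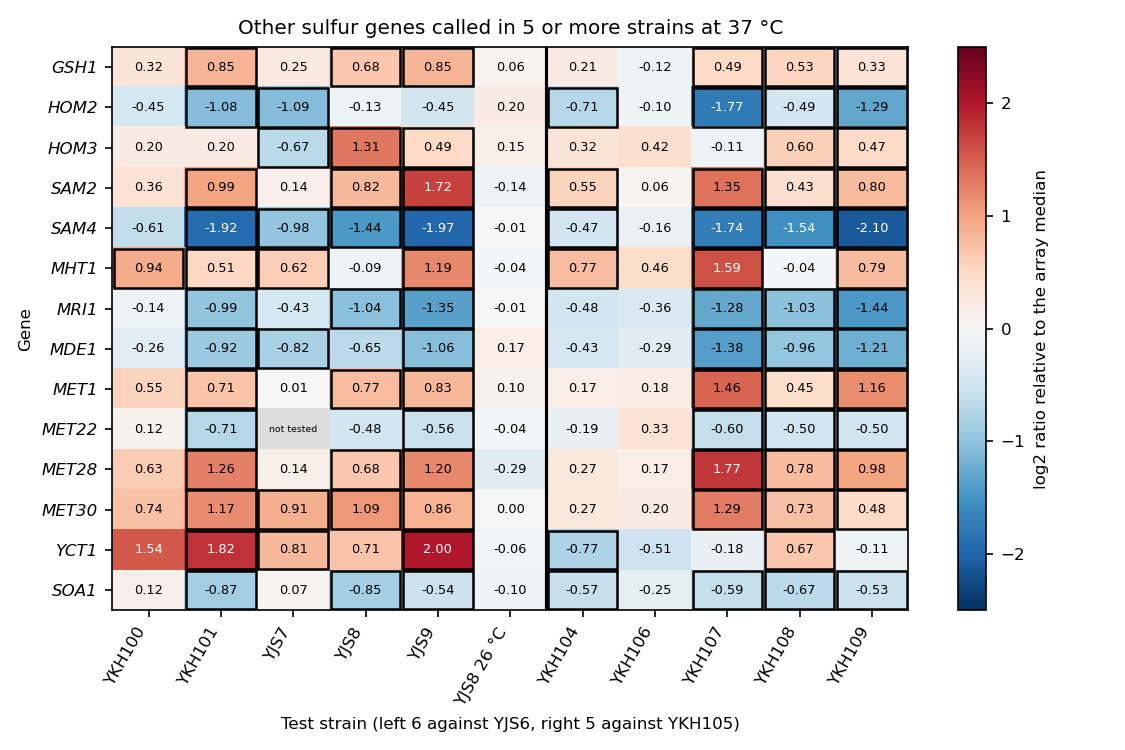
Fitted log2 ratio relative to the array median of the 14 sulfur genes outside the 10 that were called in 5 or more of the 10 groups at 37 °C (rows) by group (columns), with called cells framed. SAM4, MRI1, MDE1, HOM2, MET22 and SOA1 were called lower and SAM2, MHT1, MET1, MET28, MET30 and GSH1 higher, with HOM3 and YCT1 called in both directions. GSH1, SAM2, MHT1, MET1, MET28, MET30, HOM3 and YCT1 turned below 0 in some of these groups on the deposited scale. Many framed cells lost their call without 1 array of the strain. Among them are every MET22 call and the lower calls of YCT1 in YKH104 and of HOM3 in YJS7.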

How the data were processed

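RNA of yeast strains was measured on 30 two-channel arrays. Per the labels' protocols, a GenePix scanner and its software read the images. The authors deposited a log2 ratio of both channels for every spot, with a normalization not given in the sources used. The array had 6400 spots, of which 5955 to 6388 had a value. Spots with 1 gene numbered 5578, those with several 0 and those with none 822. Gene names came from the platform annotation and a supplied gene table that matched 5573 spots, and spots of a gene were averaged.

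Each array was centred on its median, and the deposited scale was an alternative. Genes were tested by limma 3.58.1 (R 4.3.3), in a model with 1 term per group and 1 gene-wise dye term, on 21 of the 23 test arrays and for genes on at least 18. The 7 self arrays, which have no orientation, gave ranges only. All groups shared 1 spread per gene, with 9 residual and 2.87 prior degrees of freedom, and a lone array was taken to vary as the others do. The number of arrays limits the precision, with median standard errors of 0.145 for 3 arrays, 0.173 for 2 and 0.251 for 1. The same fit gave 20 strain pairs and the temperature contrast of YJS8. Each list of p-values was adjusted over all genes tested by Benjamini-Hochberg. The code was tested on simulated data.

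The 2 orientations of a strain correlated positively over all genes, from 0.27 to 0.92, apart from YJS8 at 26 °C, and were taken as already turned. Against YKH105 the orientations also differ in array number, from 86 to 123 and from 142 to 149, so a dye effect and an effect of the array series cannot be told apart there.

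The members and lists were chosen with earlier results of these data known. All 10 members were named in every group. Of other sulfur genes, those called in 5 or more of the 10 shifted groups were named, with the highest and lowest called gene of each list in YJS9. The 5 genes most like the members' mean, GCN5 and SPT3 were also named, and MET5 was chosen after its values were seen. Alternatives were the deposited scale, no dye term, other uses of the repeated column, separate fits per reference, no minimum of arrays, robust moderation and leaving out each array. Promoter and protein sequences were not analysed here.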

Additional observations from a re-analysis of the deposited data

Results flagged for a closer look

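A test of the difference between the ratios to YJS6 of YJS8 at 37 °C and at 26 °C passed for 5 of the 10 genes. The differences were 1.64 for MUP1, 1.28 for MUP3, 1.86 for STR3, 1.51 for MET6 and 1.48 for MET17. The 37 °C side rests on 1 array. The column deposited under both YKH100 and YJS8, which the fit left out, lay above the highest YJS6 self array for 6 genes. Its centred log2 ratio was 1.05 for MUP1 (highest self array 0.39), 1.19 for STR3 (1.03), 0.52 for MET10 (0.28), 0.50 for SAM1 (0.31), 0.48 for MET17 (0.42) and 0.025 for MET3 (-0.06). It lay within the self range for 3 genes and below it for MUP3. The share of all genes outside the self range was not counted for this column. For the single arrays used for YKH100 and YJS8, 25.6% and 31% of genes lay above it and 24.4% and 33.4% below. To which strain that column belongs was not settled by the labels. No self array group of 4 had an array standing apart from the others in any of the 10 genes.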

How the results depend on the processing

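Skipping the minimum of arrays and robust moderation changed no call or direction. On the deposited scale, members called fell to 0 in YKH100, YJS8 and YKH104, to 1 in YKH107 and to 2 in YKH108. They fell to 4 in YKH101 and YJS9, each with 3 higher and 1, MET3, lower. YKH109 went from 6 higher to 3 higher and 3 lower, the latter MET3, MET14 and SAM1. Called strain differences numbered 0 against YJS6 and 10 against YKH105, of which 3, all in STR3, were also called relative to the array median. Those of YJS8 between temperatures fell to 0. Called other sulfur genes fell to 0 in YKH100, YJS7 and YKH104, 13 in YKH101, 2 in YJS8 and 14 in YJS9. In YKH107 1 of them was called higher and 25 lower, in YKH108 0 and 16, and in YKH109 0 and 25. None of the 34 member effects that changed sign there was called there. Their deposited values were in YKH100 MUP3 -0.14, MET10 -0.15 and MET16 -0.16, in YKH101 MET10 -0.22, MET16 -0.58, MET17 -0.28 and SAM1 -0.22, and in YJS8 at 26 °C MUP1 -0.23, MUP3 -0.097, STR3 -0.16, MET6 -0.25 and SAM1 -0.21. They were in YJS7 SAM1 0.18, in YJS8 MET3 -0.42, MET10 -0.68, MET14 -0.20 and MET16 -0.51, in YJS9 MET14 -0.018, in YKH104 STR3 0.038, MET14 0.033 and MET16 0.080, and in YKH106 MUP3 0.012 and SAM1 0.16. They were in YKH107 MET3 -0.057, MET14 -0.32, MET16 -0.14 and SAM1 -0.71, in YKH108 MET3 -0.49, MET10 -0.23, MET14 -0.37, MET16 -0.14, MET17 -0.0093 and SAM1 -0.67, and in YKH109 MET16 -0.30. Other sulfur genes that turned were in YKH101 MHT1 -0.18, in YJS8 MET1 -0.10, SAM2 -0.054, MET28 -0.20 and GSH1 -0.19, in YJS9 HOM3 -0.016, and in YKH107 GSH1 -0.47 and MET32 -0.18. In YKH108 these were MET1 -0.24, HOM3 -0.091, SAM2 -0.26, YCT1 -0.013 and GSH1 -0.16, and in YKH109 HOM3 -0.44, SAM2 -0.11, MHT1 -0.20, MET30 -0.43, GSH1 -0.57 and MMP1 -0.056. Differences that turned were in YJS7 minus YKH101 MET17 0.16, in YKH104 minus YKH107 MUP1 0.44, MET10 0.12, MET14 0.36 and MET17 0.11, in YKH104 minus YKH108 MUP1 0.065 and in YKH104 minus YKH109 MUP3 0.28. They were in YKH106 minus YKH107 MUP1 0.36, MET10 0.20 and MET17 0.39, in YKH106 minus YKH108 MET6 0.061 and in YKH106 minus YKH109 MET10 0.0078 and MET17 0.21. The values differ by the array medians that centring removes.

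Without the dye term, YKH104 had 1 member called and YKH100 1 other sulfur gene, and MET16 in YKH100 moved to -0.032. With the repeated column under both strains, YKH100 had 4 members and 4 other sulfur genes called, YKH104 0 members and the temperature contrast 2, with MET16 in YKH100 at -0.019 and SAM1 in YJS8 at 0.15. Counted as YKH100 only, it gave 4 members and 6 other sulfur genes there and 1 in YKH106, with MET16 in YKH100 at -0.019. Counted as YJS8 only, it gave 0 members in YKH100 and YKH104, 16 differences against YJS6, 1 in the temperature contrast, 0 other sulfur genes in YKH100 and 6 in YKH104, with SAM1 in YJS8 at 0.15. Separate fits per reference gave 0 members in YKH100 and 14 other sulfur genes in YJS7, with MET16 in YKH100 at -0.15. The cause of these changes was not tested.

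Leaving out 1 array gave 4 to 6 members called in YKH101, 0 to 0 in YKH104 and 0 to 1 in YKH106, and 3 in the temperature contrast. It gave 13 to 17 other sulfur genes in YKH101, 3 to 5 in YJS7, 19 to 23 in YJS9, 1 in YKH104 and 10 to 12 in YKH108. Called differences numbered 22 to 31 against YJS6 and 29 to 45 against YKH105. Of refits of a called difference, 80 lost the call and 191 kept it, and 63 refits of other sulfur genes lost a call. No called member effect changed sign under it. The effects that did had ranges in YKH101 of MET16 -0.097 to 0.32, in YJS7 of MET10 -0.32 to 0.33, MUP3 -0.74 to 0.0054, MET16 -0.61 to 0.12 and SAM1 -0.14 to 0.12, and in YKH104 of MET3 -0.36 to 0.00037, STR3 -0.37 to 0.23 and MET6 -0.082 to 0.11. In YJS8 at 26 °C they were MET3 -0.068 to 0.0016, MET6 -0.18 to 0.20, MET14 -0.43 to 0.021, MUP1 -0.0067 to 0.066, STR3 -0.088 to 0.30, MET16 -0.35 to 0.13, MET17 -0.26 to 0.041 and SAM1 -0.045 to 0.14. They were in YKH106 MET14 -0.12 to 0.25, MET6 -0.0094 to 0.27 and SAM1 -0.11 to 0.093, in YKH108 MET3 -0.030 to 0.43 and SAM1 -0.056 to 0.10, and in YKH109 MET3 -0.73 to 0.44. No paired analysis was possible because the labels give no replicate numbers, and the order of replicates coincides with the channel orientation already fitted as the dye term.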
